A study of Homo sapiens with 8 samples.

Results

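Gangliosides are glycosphingolipids that carry sialic acid, and the 9 genes described here encode the glycosyltransferases that build their sugar chains: UGCG, B4GALT6, ST3GAL5, ST8SIA1, ST8SIA5, B4GALNT1, B3GALT4, ST3GAL1, and ST3GAL2. The set was assembled around ST8SIA1, which was chosen by its measured signals across the constructs. Which of its values were decisive is not stated, so all of them are treated as used in the choice. The other 8 genes act in the same pathway. A probe belonged to the set when its RefSeq transcript mapped to 1 of these symbols, which gave 9 of the 19483 genes named on the array and 10 of its 34127 non-control probes, with 2 probes for ST8SIA1 and 1 for each of the others.

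RNA came from 8 stable HEK293T cell lines, a human embryonic kidney line, and each line was hybridized to 1 single-color Agilent array. All lines had been transfected with a pcDNA6 plasmid and selected with blasticidin, so the controls also carried plasmid and selection, and every line was grown from a single colony. There were 2 clones for each of 4 plasmids. Clones #1 and #2 held the empty vector, #2 and #5 the TET1-CDwt plasmid, #3 and #10 the plasmid for MBD-TET1-CDwt, and #9 and #10 that for MBD-TET1-CDmut. TET1-CDwt is the wild-type catalytic domain of TET1, the dioxygenase that oxidizes 5-methylcytosine. In MBD-TET1-CDwt that domain is joined to the methyl-CpG-binding domain, which binds methylated DNA, and MBD-TET1-CDmut differs from it by a mutation that inactivates catalysis. The arrays of slide 1 were those of empty vector and TET1-CDwt, and slide 2 held the arrays of both fusions, so for the fusions against empty vector the slide and the construct cannot be told apart. MBD-TET1-CDwt against MBD-TET1-CDmut, and TET1-CDwt against empty vector, are comparisons within 1 slide. With 2 clones a group, a p-value measures only the spread between clones, and the fit took that spread as common to the 4 groups. The measured spread differed. Over all probes tested, the root mean square SD between clones, in log2 units, was 0.50 in MBD-TET1-CDwt and 0.38 in TET1-CDwt. It was 0.35 in empty vector and 0.25 in MBD-TET1-CDmut, so the common spread can be too small for MBD-TET1-CDwt.

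Synthesis starts when UGCG places glucose on ceramide and a galactosyltransferase such as B4GALT6 extends it to lactosylceramide. ST3GAL5 adds the first sialic acid to give GM3, ST8SIA1 adds a second to give GD3, and ST8SIA5 adds a further one to give GT3. B4GALNT1, B3GALT4, and the sialyltransferases ST3GAL1 and ST3GAL2 then extend these precursors into the complex gangliosides that are abundant in the nervous system, while GD3 and its derivatives are best known from neuroectodermal cells and melanoma.

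Because the study's constructs act on methylated CpG sites, the CpG content of the promoters is shown. Promoter windows, from 250 bases before to 50 bases after a RefSeq start site (GRCh38.p14), were at hand for 3 of the 9 genes. ST8SIA1 has 1 window, on chr12:22334658-22334957 (minus strand), and UGCG has 1, on chr9:111896564-111896863 (plus strand). Both are printed 5′ to 3′ with every CG, the only motif searched, in capitals; the motif reads the same on both strands.
ST8SIA1: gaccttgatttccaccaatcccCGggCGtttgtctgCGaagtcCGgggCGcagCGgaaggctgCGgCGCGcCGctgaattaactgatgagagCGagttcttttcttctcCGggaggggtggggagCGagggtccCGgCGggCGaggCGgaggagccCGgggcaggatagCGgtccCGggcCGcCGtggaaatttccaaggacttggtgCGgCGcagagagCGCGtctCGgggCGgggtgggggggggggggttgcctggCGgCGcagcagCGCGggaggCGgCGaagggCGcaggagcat
UGCG: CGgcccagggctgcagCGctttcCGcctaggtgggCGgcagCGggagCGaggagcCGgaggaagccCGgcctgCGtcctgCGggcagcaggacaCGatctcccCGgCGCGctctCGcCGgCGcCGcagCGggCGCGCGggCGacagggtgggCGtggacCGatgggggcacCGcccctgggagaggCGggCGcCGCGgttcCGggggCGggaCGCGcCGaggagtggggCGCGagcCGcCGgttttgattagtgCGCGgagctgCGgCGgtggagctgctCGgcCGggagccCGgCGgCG
The ST8SIA1 window holds 35 CG, and 14.1% of all 35116 windows of this length hold at least as many. The UGCG window holds 48, a number reached by 1.98% of windows, while the median window holds 14 and 96.0% hold at least 1. ST3GAL5 has 5 windows for its alternative starts, holding between 3 and 48 CG. Methylation of these sequences was not analysed here.

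Levels are given below as log2 of the processed intensity less its 75th percentile over probes on that array, called the normalized log2 level. That percentile ranged from 328 to 527 intensity units, 63.2% to 68.2% of probes were well above background by the scanner software's own call, and no non-control spot was saturated. Probes differ in brightness for the same amount of RNA, so levels are compared between arrays for 1 probe and never between probes. All 9 genes of the embryonic kidney and HEK293 lineage list, among them VIM, KRT8, and PAX2, were well above background on both arrays of every group. Lists for other cell types had 3 of 5 melanocyte, 3 of 4 leukocyte, 1 of 4 endothelial, and 1 of 4 fibroblast genes well above background in every group. The T cell gene CD3E, the endothelial genes PECAM1, VWF, and KDR, the fibroblast genes COL1A2, DCN, and LUM, and the melanocyte genes MLANA and TYR were not. Probes for TET1 and MBD2 gave no check of the constructs, because the place of each probe relative to the transgene is not known. The brighter TET1 probe differed from empty vector by -0.06 in lines with TET1-CDwt, by 0.01 with MBD-TET1-CDwt, and by -0.05 with the mutant fusion, and the dimmer by 0.07, -0.25, and 0.44 in the same order. The brighter MBD2 probe differed by 0.13, 0.14, and 0.02, and the dimmer by 1.03, 0.54, and 0.26, and limma called none of them.

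The 2 ST8SIA1 probes, both designed to transcript NM_003034, did not give the same picture. Probe A_23_P354705 was well above background only in the empty vector lines, and probe A_33_P3380751 was well above background on all 8 arrays with small differences. The values of ST8SIA1 are a description with no test, since it was chosen by them. In such bulk RNA, fewer cells with a transcript and less of it per cell cannot be told apart.

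For A_23_P354705, the processed intensity was 23.6 in empty vector #1 and 18.0 in #2. It was 2.22 and 1.86 in TET1-CDwt #2 and #5, 1.99 and 2.43 in MBD-TET1-CDwt #3 and #10, and 1.81 and 2.08 in MBD-TET1-CDmut #9 and #10. Every array of the 3 constructs lay below both empty vector arrays, and on none of those 6 was the probe well above background. On the normalized log2 scale the empty vector lines stood at -3.90 and -4.64, and the other 6 between -7.94 and -7.08. The measured group differences from empty vector were -3.65 for TET1-CDwt, -3.00 for the active fusion MBD-TET1-CDwt, and -3.27 for the mutant fusion MBD-TET1-CDmut. These sizes cannot be read as folds, because the low side was not well above background. Against the lowest signal well above background on each array, which stood between -6.01 and -5.51, empty vector was at least 3.12-fold higher than TET1-CDwt, at least 2.41-fold higher than MBD-TET1-CDwt, and at least 2.40-fold higher than MBD-TET1-CDmut. Without empty vector #1 these bounds were 2.42-, 1.87-, and 1.86-fold, and without #2 they were 4.03-, 3.11-, and 3.09-fold. The 3 differences share the same 2 control arrays. The bounds hold for the processed signals only, since local background subtraction gave smaller differences for TET1-CDwt and MBD-TET1-CDwt.

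The pattern was not confined to ST8SIA1: 60 of the 22567 probes tested, or 0.266%, were well above background on both empty vector arrays and on no other. That share does not measure how unusual this probe is. Its values count as used in the choice, and it was among the probes tested only through the empty vector arrays. As a matter of level alone, 3.66% of probes had both empty vector arrays above each of the other 6, as this ST8SIA1 probe did, and 1.92% had both below, as no member did. TET1-CDwt shared slide 1 with empty vector, and on neither of its arrays there was the probe well above background. Probes that never passed the background call, 9152 in number, had median differences from empty vector of 0.37 in MBD-TET1-CDwt, 0.35 in MBD-TET1-CDmut, and -0.07 in TET1-CDwt. Dim signals in general thus stood higher in both fusions, which filled slide 2, so slide and construct cannot be told apart. The part of such dim signals in the ST8SIA1 values was not tested. Between the 2 fusions, both without a signal well above background, no fold is given.

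**Figure D1:**
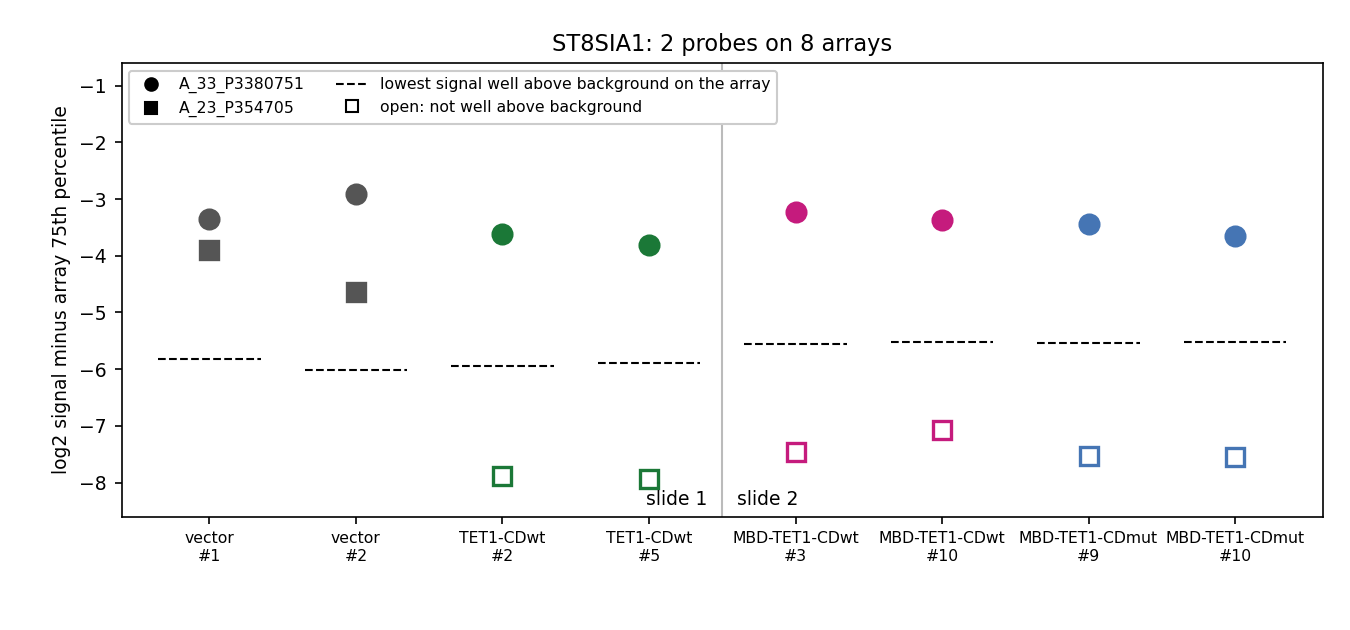
Normalized log2 level (vertical axis) of the 2 ST8SIA1 probes on each of the 8 arrays (horizontal axis, clones by construct and slide). Circles are A_33_P3380751 and squares A_23_P354705, open squares mark signals not well above background, and dashed lines the lowest signal well above background on each array. The squares stand at -3.90 and -4.64 in the empty vector lines and at -7.08 or lower in the other 6, while the circles stay between -3.81 and -2.92.

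For A_33_P3380751, the brighter probe, the normalized log2 level was -3.36 and -2.92 in empty vector #1 and #2, and -3.61 and -3.81 in TET1-CDwt #2 and #5. MBD-TET1-CDwt #3 and #10 gave -3.23 and -3.37, and MBD-TET1-CDmut #9 and #10 gave -3.44 and -3.65. The whole span was 0.89. In descending order the group means were -3.14 ± 0.31 for empty vector, -3.30 ± 0.10 for MBD-TET1-CDwt, -3.55 ± 0.15 for MBD-TET1-CDmut, and -3.71 ± 0.14 for TET1-CDwt (SD, n = 2 each). Empty vector and MBD-TET1-CDwt overlapped, as did MBD-TET1-CDmut and TET1-CDwt, while both MBD-TET1-CDwt arrays lay above both MBD-TET1-CDmut arrays. The difference from empty vector was -0.57 for TET1-CDwt, against -0.16 for MBD-TET1-CDwt, with -0.41 for MBD-TET1-CDmut, none reaching 2-fold. Over the 8 arrays the 2 probes had a Pearson correlation of 0.65, a description over arrays that share slides and constructs. The deposited probe names and transcript do not show where along the transcript each probe lies, so which isoform or exon either one reads was not examined.

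None of the other 8 enzymes was called by limma, at an adjusted p of 0.05 over all probes tested, in any of the 4 comparisons. At an unadjusted p under 0.05, TET1-CDwt against empty vector had 1 enzyme higher and 0 lower, MBD-TET1-CDwt against empty vector 1 higher and 0 lower, MBD-TET1-CDmut against empty vector 0 in either direction, and MBD-TET1-CDwt against MBD-TET1-CDmut 1 higher and 1 lower. Calls over all probes were few as well. With the adjusted p, MBD-TET1-CDwt had 0.106% of probes higher and 0.0133% lower than empty vector, and 0.0975% higher and 0.0133% lower than MBD-TET1-CDmut, and both other comparisons had 0%. Without adjustment, 0.656% of probes were higher and 1.85% lower in TET1-CDwt than in empty vector, 2.84% and 3.75% in the active fusion, 0.864% and 1.81% in the mutant fusion, and 3.29% and 3.56% in MBD-TET1-CDwt against MBD-TET1-CDmut. In data simulated for the comparison of MBD-TET1-CDwt with empty vector, limma recovered 77 of 100 probes changed 5-fold and 17 of 100 changed 2-fold. It also called 9 unchanged probes. The simulation changed 200 probes and drew independent noise of the same spread in every group, so its rates are only a guide for these arrays. Under its setting, a 2-fold change in an enzyme would often be missed. All 8 enzymes were well above background on all 8 arrays.

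The median difference of the 8 enzymes was 0.09 in TET1-CDwt, -0.22 in the active fusion, and -0.10 in the mutant fusion against empty vector, and -0.09 in MBD-TET1-CDwt against MBD-TET1-CDmut. Over all probes tested the medians were -0.03, -0.02, -0.02, and 0.01. Differences of single enzymes ran from -0.21 to 0.50 in TET1-CDwt, while the active fusion had -0.36 to 1.45 and the mutant fusion -0.27 to 0.19. Counting the 10 probes whose arrays did not overlap, TET1-CDwt had 2 above and 2 below empty vector (10.7% and 17% of all probes), MBD-TET1-CDwt 2 and 3 (13.7% and 17.2%), and the mutant fusion 2 and 2 (15.5% and 19.3%). MBD-TET1-CDwt had 5 above and 2 below MBD-TET1-CDmut (18.1% and 17.9%). These counts include the ST8SIA1 probes, whose values count as used in the choice. The shares of all probes are therefore no test of the counts. Each probe counted below empty vector for TET1-CDwt, or for the mutant fusion, was an ST8SIA1 probe. A_23_P354705 was also among the 3 below for MBD-TET1-CDwt. The 5 above MBD-TET1-CDmut held both ST8SIA1 probes, with A_23_P354705 not well above background in either fusion. Directions were mixed in each comparison, with 5 of 8 enzymes higher in TET1-CDwt and 3 of 8 higher in each of the fusions than in empty vector.

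**Figure D2:**
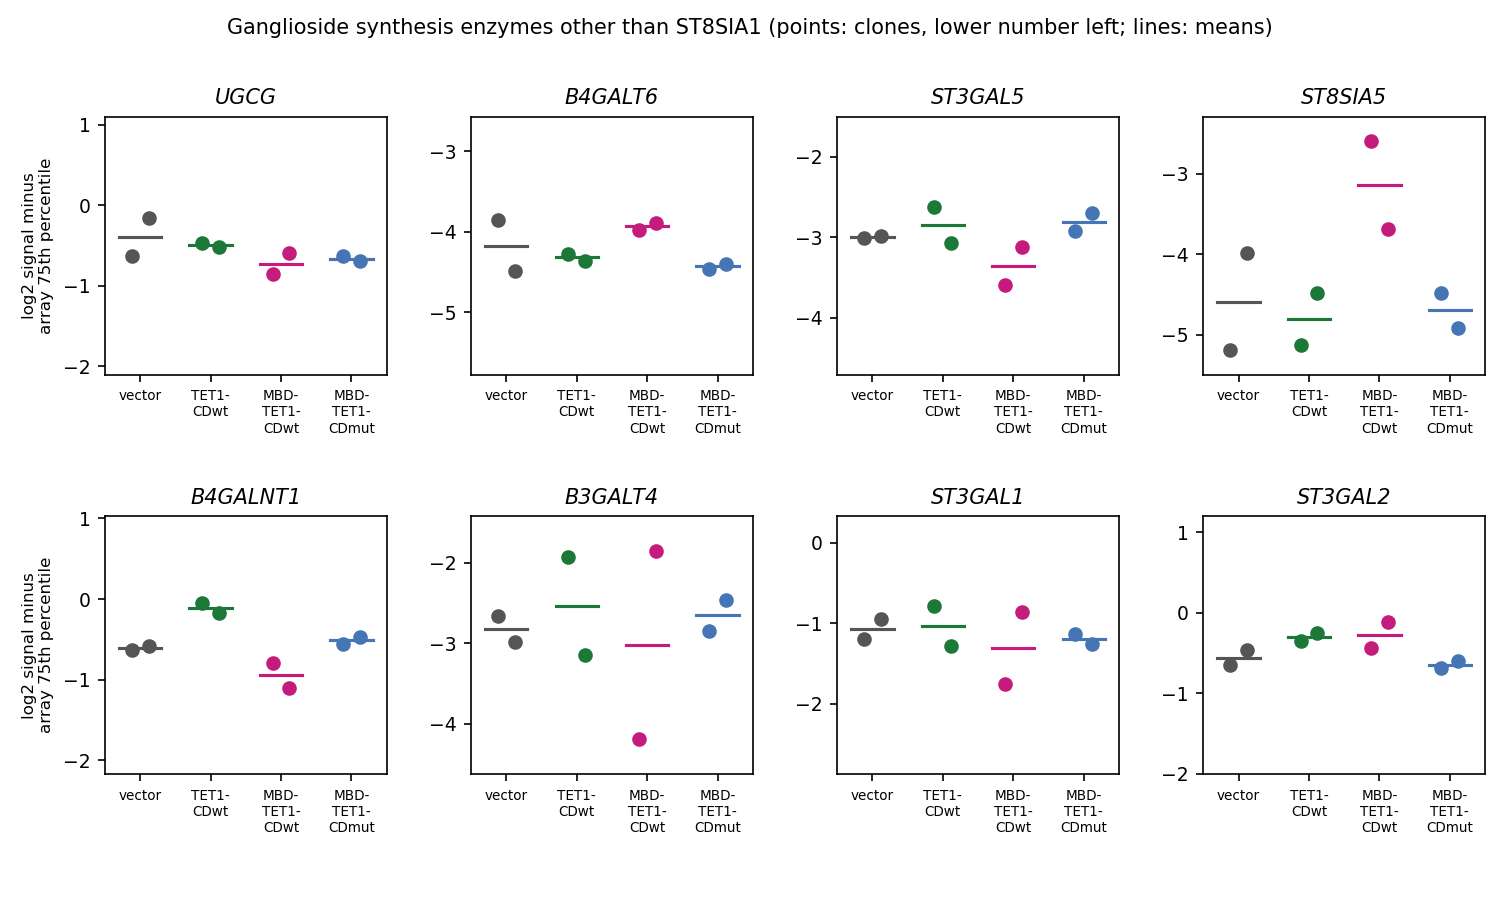
Normalized log2 level (vertical axes, each spanning the same number of log2 units) of the 8 other enzymes by construct (horizontal axes). Points are single clones, with the lower clone number on the left, and lines are means of 2 clones. ST8SIA5 stands highest in both MBD-TET1-CDwt clones, at -2.60 and -3.68, and B3GALT4 differs by 2.34 between the same clones.

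UGCG, ceramide glucosyltransferase, opens the pathway. Its normalized log2 levels were -0.64 and -0.16 in empty vector #1 and #2, -0.47 and -0.52 in TET1-CDwt, -0.86 and -0.60 in MBD-TET1-CDwt, and -0.64 and -0.70 in MBD-TET1-CDmut. The groups overlapped, except that both TET1-CDwt arrays lay above those of the fusions. The difference of MBD-TET1-CDwt from empty vector was -0.33 (95% interval -0.84 to 0.18), with a limma adjusted p of 0.874.

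B4GALT6 makes lactosylceramide. It stood at -3.86 and -4.49 in empty vector, -4.27 and -4.36 in TET1-CDwt, -3.98 and -3.88 in MBD-TET1-CDwt, and -4.46 and -4.39 in MBD-TET1-CDmut. Both MBD-TET1-CDwt clones lay above both MBD-TET1-CDmut clones, by 0.50 on average (interval -0.06 to 1.05, limma adjusted p = 0.747), and the empty vector clones spanned both groups. Its differences from empty vector lay between -0.26 and 0.24.

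ST3GAL5, GM3 synthase, supplies the substrate of ST8SIA1. Its levels were -3.02 and -2.98 in empty vector, -2.62 and -3.07 in TET1-CDwt, -3.59 and -3.13 in MBD-TET1-CDwt, and -2.92 and -2.70 in MBD-TET1-CDmut. Both MBD-TET1-CDwt arrays were below the other 6, with clone #10 only just below TET1-CDwt #5. MBD-TET1-CDwt differed from empty vector by -0.36 (interval -0.93 to 0.21, limma adjusted p = 0.874) and from MBD-TET1-CDmut by -0.55 (interval -1.12 to 0.02, limma adjusted p = 0.739).

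ST8SIA5, which adds sialic acid downstream of ST8SIA1, had the largest differences of the 8 in the comparisons of MBD-TET1-CDwt, and they did not pass the adjusted test. Its levels were -5.19 and -3.99 in empty vector #1 and #2, and -5.13 and -4.48 in TET1-CDwt #2 and #5. MBD-TET1-CDwt #3 and #10 gave -2.60 and -3.68, and MBD-TET1-CDmut #9 and #10 gave -4.48 and -4.91. Both MBD-TET1-CDwt clones therefore lay above each of the other 6 arrays, which held for 4.96% of all probes tested.

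The mean of ST8SIA5 in MBD-TET1-CDwt was 2.73-fold that in empty vector, a log2 difference of 1.45 (SE 0.51, interval 0.25 to 2.65), with an unadjusted limma p of 0.0247 and an adjusted p of 0.708. Within slide 2, it was 2.93-fold that in MBD-TET1-CDmut, a log2 difference of 1.55 (interval 0.35 to 2.75), with an unadjusted limma p of 0.0185 and an adjusted p of 0.643. TET1-CDwt and MBD-TET1-CDmut differed from empty vector by -0.21 and -0.10. The signals were dim, with processed intensities from 9.66 in empty vector #1 to 57.7 in MBD-TET1-CDwt #3, and 14.9 and 12.9 in MBD-TET1-CDmut. In empty vector #1 the level of -5.19 was near the lowest signal well above background on that array, -5.82. Clones of 1 group differed by up to 1.20 in empty vector, and by 1.08 in MBD-TET1-CDwt. Single clones decided the size: the fold over empty vector was 1.88 without MBD-TET1-CDwt #3 and 3.98 without #10, and 1.80 without empty vector #1 and 4.14 without #2.

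B4GALNT1, the N-acetylgalactosaminyltransferase that makes GM2 and GD2, varied little between clones of a group, by at most 0.31. It stood at -0.63 and -0.58 in empty vector, -0.05 and -0.17 in TET1-CDwt, -0.79 and -1.10 in MBD-TET1-CDwt, and -0.56 and -0.47 in MBD-TET1-CDmut. The TET1-CDwt clones were the highest and the MBD-TET1-CDwt clones the lowest, with no overlap between any of the groups.

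TET1-CDwt exceeded empty vector in B4GALNT1 by 0.50 (interval 0.07 to 0.93), with an unadjusted limma p of 0.0293 and an adjusted p of 1.00. MBD-TET1-CDwt differed from empty vector by -0.34 (interval -0.77 to 0.09, limma adjusted p = 0.824) and from MBD-TET1-CDmut by -0.43 (limma p of 0.0497 before adjustment, adjusted p = 0.730). B4GALNT1 and ST3GAL5 were the 2 member probes of 10 with both MBD-TET1-CDwt arrays below the other 6, beside 5.55% of all probes tested.

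B3GALT4 makes GM1 and GD1b. Its levels were -2.66 and -2.99 in empty vector, -1.93 and -3.15 in TET1-CDwt #2 and #5, -4.19 and -1.85 in MBD-TET1-CDwt #3 and #10, and -2.84 and -2.47 in MBD-TET1-CDmut. The MBD-TET1-CDwt clones held both the lowest and the highest value of all 8 arrays. Their difference of 2.34 was exceeded by 1.09% of probes tested in that pair. The mean difference of MBD-TET1-CDwt from empty vector was -0.20 (interval -1.95 to 1.55, limma adjusted p = 0.977), and it was 0.97 without clone #3 and -1.37 without clone #10. Without those clones in turn, the difference from MBD-TET1-CDmut was 0.80 and -1.54.

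ST3GAL1 and ST3GAL2 cap the complex gangliosides with sialic acid. ST3GAL1 stood at -1.19 and -0.95 in empty vector, -0.79 and -1.28 in TET1-CDwt, -1.75 and -0.85 in MBD-TET1-CDwt, and -1.13 and -1.25 in MBD-TET1-CDmut, and each construct overlapped with empty vector. ST3GAL2 stood at -0.65 and -0.47 in empty vector, -0.36 and -0.25 in TET1-CDwt, -0.44 and -0.12 in MBD-TET1-CDwt, and -0.68 and -0.60 in MBD-TET1-CDmut. Both TET1-CDwt and MBD-TET1-CDwt were above empty vector in ST3GAL2 without overlap, by 0.25 and 0.28, and the limma adjusted p was 1.00 and 0.876. The differences of ST3GAL1 from empty vector lay between -0.23 and 0.04.

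**Figure D3:**
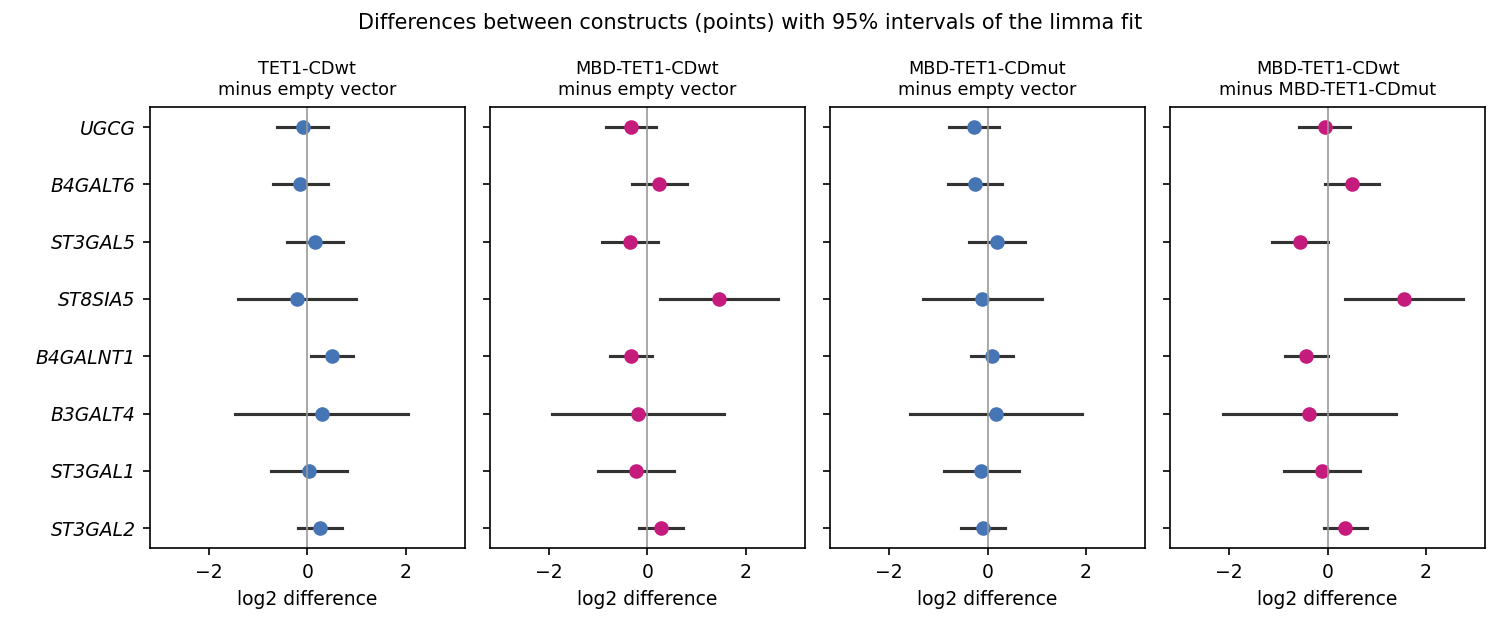
Log2 difference (horizontal axes) of the 8 enzymes (vertical axis) in the 4 comparisons. Points are differences of group means (2 clones each), pink where MBD-TET1-CDwt is compared and blue otherwise, and bars are 95% intervals of the limma fit, not adjusted for the number of probes. The intervals of ST8SIA5 in both comparisons of MBD-TET1-CDwt lie above 0, from 0.25 to 2.65 and from 0.35 to 2.75, and those of B3GALT4 are the widest.

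By size, no member reached 5-fold, the study's threshold, with dim signals at the floor. Over all probes 0.0133% were 5-fold higher and 0.00443% lower in TET1-CDwt than in empty vector, 0.297% and 0.0266% in the active fusion, 0.0354% and 0.00886% in the mutant fusion, and 0.226% and 0.062% in the active against the mutant fusion. At 2-fold, the dimmer ST8SIA1 probe was lower than empty vector in each of the 3 constructs, beside 0.563% of all probes in TET1-CDwt, 0.97% in the active fusion, and 0.412% in the mutant fusion, where these ST8SIA1 values count as used in its choice. ST8SIA5 was the only member past 2-fold higher, in MBD-TET1-CDwt against empty vector (1.21% of probes) and against MBD-TET1-CDmut (1.29%). No member was 2-fold higher in TET1-CDwt or MBD-TET1-CDmut, beside 0.35% and 0.363% of probes, or 2-fold lower in the active than in the mutant fusion, beside 1.09%. Without empty vector #1, neither ST8SIA1 nor ST8SIA5 passed 2-fold in MBD-TET1-CDwt against empty vector, and without MBD-TET1-CDwt #10, B3GALT4 also passed, as 2.58-fold lower.

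Genes around the pathway, 64 in 5 lists, were examined the same way. They had 84 probes, of which 67 for 54 genes were tested, and limma called 0 of them in each of the 4 comparisons. At an unadjusted p under 0.05, 0 were higher and 2 lower in TET1-CDwt than in empty vector, 2 higher and 3 lower in MBD-TET1-CDwt, 2 higher and 1 lower in MBD-TET1-CDmut, and 2 higher and 5 lower in MBD-TET1-CDwt against MBD-TET1-CDmut. Of the 67 probes, 44 had a negative difference in MBD-TET1-CDwt against empty vector, 45 in each of the other constructs, and 40 against MBD-TET1-CDmut, where 53.1%, 56.3%, 54.6%, and 49.0% of all probes tested had one. These counts are not independent, because the comparisons with empty vector share its 2 arrays and the 67 probes belong to 54 genes.

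The other sialyltransferases, 15 genes with 13 probes tested, had median differences from empty vector of -0.24 in TET1-CDwt, -0.19 in the active fusion, and -0.08 in the mutant fusion. ST6GALNAC6, which adds sialic acid to make alpha-series gangliosides, stood at 0.58 and 0.62 in empty vector, -0.26 and 0.14 in TET1-CDwt, -0.15 and -0.20 in MBD-TET1-CDwt, and 0.52 and 0.11 in MBD-TET1-CDmut. Both empty vector arrays were above the other 6, which held for 3.66% of all probes tested. Its difference of -0.77 in MBD-TET1-CDwt had an unadjusted limma p of 0.00963 and an adjusted p of 0.567, and that of -0.66 in TET1-CDwt an adjusted p of 1.00. ST8SIA3, a relative of ST8SIA1 that extends sialic acid chains, stood at -5.31 and -4.51 in empty vector, -4.80 on both TET1-CDwt arrays, -3.94 and -4.30 in MBD-TET1-CDwt, and -4.00 and -4.11 in MBD-TET1-CDmut. The arrays of slide 2 were all above those of slide 1, with differences of 0.79 and 0.85 for the fusions (limma adjusted p = 0.720 and 1.00) and -0.06 between the fusions. How many of all probes had that order of slides was not counted.

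Other glycosphingolipid transferases, 7 genes with 7 probes tested, had a median difference of -0.07 in MBD-TET1-CDwt against empty vector. A4GALT, which makes the globo-series lipid Gb3, differed by 0.16, and B3GNT5, which opens the lacto series, by -0.17. Ganglioside breakdown, 15 genes with 14 probes tested, had a median of -0.20. GALC, the lysosomal galactosylceramidase, stood at -2.17 and -1.73 in empty vector and at -1.61 or higher on the other 6 arrays, with a difference of 0.77 in MBD-TET1-CDwt (limma adjusted p = 0.774). PSAP, the precursor of the saposin activators, has 2 probes tested. The brighter, A_23_P12680, differed by -0.38 from empty vector and by -0.64 from MBD-TET1-CDmut, and A_24_P309317 by -0.57 and by -0.96 (limma p of 0.0170 before adjustment, adjusted p = 0.643). The differences from empty vector came from MBD-TET1-CDwt #3, at 2.02 and -0.17 for these probes. Clone #10, at 2.69 and 0.63, lay between the empty vector arrays, which were 2.79 and 2.67 for the brighter probe and 0.96 and 0.62 for the other.

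For ceramide supply and transport, 17 genes with 20 probes tested, the median was -0.03. SPTLC1, a subunit of serine palmitoyltransferase, has 2 probes tested, of opposite sign against MBD-TET1-CDmut. The brighter, A_23_P43326, differed by -0.10 in MBD-TET1-CDwt against empty vector and by 0.13 against MBD-TET1-CDmut. The dimmer, A_23_P311192, differed by -0.53 and -0.51 (limma adjusted p = 0.744 and 0.722). Both MBD-TET1-CDwt clones, at -1.33 and -1.66, lay below the other 6 arrays, which held for 5.55% of all probes tested. CERS4, a ceramide synthase, differed by -0.65 from empty vector, with -2.54 in clone #3 and -1.42 in #10. Sugar donor supply, 10 genes with 13 probes tested, had a median of -0.15. The UDP-galactose transporter SLC35A2 has 3 probes tested, which differed by 0.03 (A_24_P310616, the brightest), 0.15 (A_23_P217208), and -0.42 (A_33_P3261737). GALT, which forms UDP-galactose, differed by -0.47, with clones of MBD-TET1-CDwt at -0.19 and 1.32 for GALT.

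**Figure D4:**
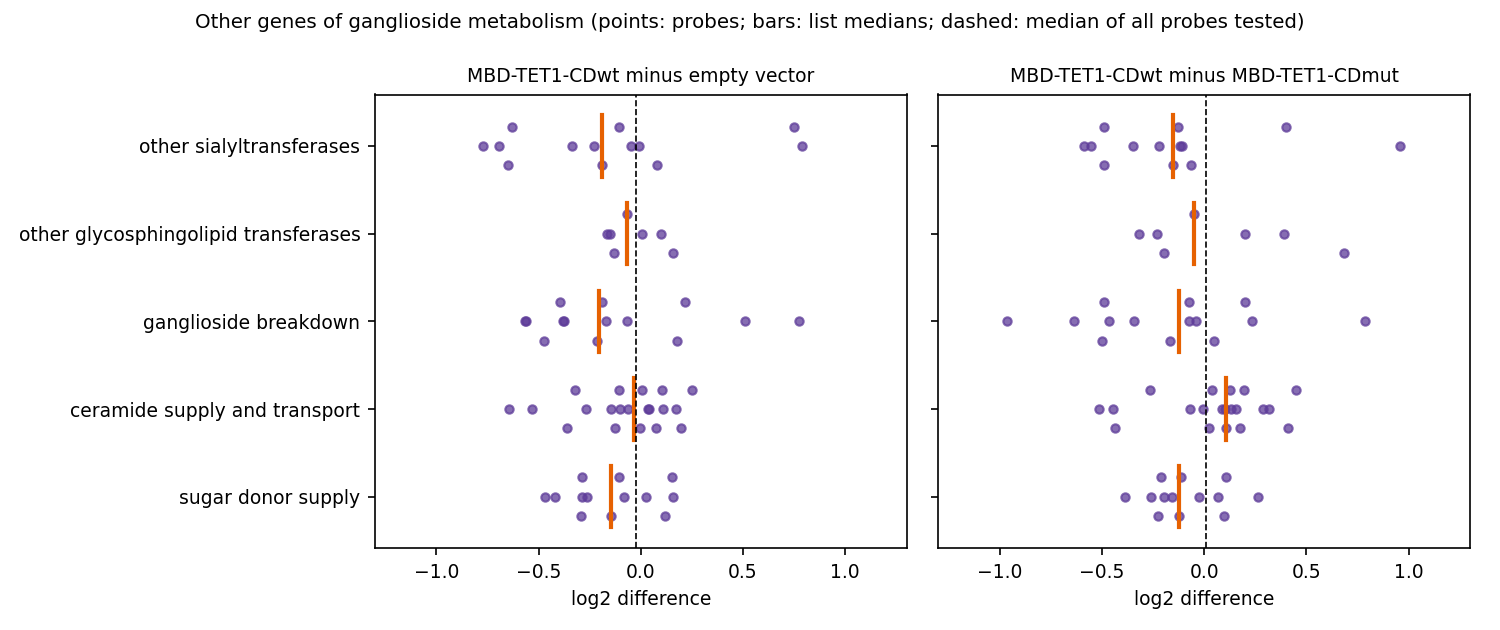
Log2 difference (horizontal axes) of the 67 tested probes in 5 lists of related genes (vertical axis), for MBD-TET1-CDwt against empty vector (left) and against MBD-TET1-CDmut (right). Points are probes, orange bars list medians, and the dashed line the median of all probes tested; the list medians against empty vector run from -0.20 to -0.03 and no probe was called.

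The genes whose pattern over the 8 arrays was most like the brighter ST8SIA1 probe were sought among 1354 probes that spanned at least 2 log2 units. The brighter ST8SIA1 probe itself spanned 0.89, so probes as flat as it were left out of the search. The genes found were EGFEM1P, GPR171, KCNQ1OT1, CLEC2D (well above background on 5 arrays), CLEC2B, STXBP5L, LINC00597, and PFN1P2, with Pearson correlations from 0.95 to 0.77. For the dimmer probe, a reference added after its values were seen, they were IFIT2, DEFB130A, TM4SF19, CYMP, F7, KIAA0087, IL24, and COL6A5, from 0.88 to 0.75, and no gene was in both lists. IFIT2, an interferon-induced gene, averaged -4.79 in empty vector and -6.91 over the other 6 arrays and was well above background on 2 arrays. DEFB130A, TM4SF19, CYMP, IL24, and CLEC2B were also well above background on only 2 arrays. Probes of this kind were tested only through the group where they were high. Their likeness to ST8SIA1 is therefore partly fixed by that filter, and the reference values count as used in the choice. Such correlations over 8 arrays that share constructs and slides are a description. Of the 8 genes for the brighter probe, 7 were listed again without MBD-TET1-CDwt #10 and 4 without #3, and for the dimmer probe 5 and 4.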

How the data were processed

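The authors hybridized Cy-3 labeled cRNA, and the deposited intensity values are Agilent Feature Extraction processed signals after background subtraction, not scaled between arrays (version 9.5.1 in the submitters' notes, 10.7.3.1 per the file headers). The deposited whole-series table repeats them. Control and outlier-flagged spots (213 to 269 per array) were dropped, log2 intensities were averaged per probe, and each array's 75th percentile was subtracted. Tests took the probes that the software called well above background in both clones of 1 or more groups. limma 3.58.1 (R 4.3.3) fitted 4 group means to 8 arrays with Benjamini-Hochberg adjustment, and the fit was tested on simulated data. A dim signal entered folds at the array's lowest signal well above background, or at its own value where that was higher. Symbols came from RefSeq (GRCh38.p14) through accessions. Named genes were all members, 2 genes per list with the probe of largest difference of MBD-TET1-CDwt from empty vector, 8 genes most like ST8SIA1, TET1, and MBD2. Members, lists, and tests were chosen with earlier results of these data known. Marker genes named as absent were chosen after their values were seen. Alternatives were other scalings, filters, background, fits, and left-out clones. The number of arrays limits precision. Python 3.11.15, numpy 2.4.6, pandas 2.3.3, and matplotlib 3.10.9 were used.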

Additional observations from a re-analysis of the deposited data

How the results depend on the processing

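None of the 8 enzymes other than ST8SIA1 was called by limma in any of 512 recomputed values, over other scalings, filters, background subtraction, fits, and left-out clones, with a lowest adjusted p of 0.164, and 21 of those values changed sign. The adjusted p of ST8SIA5 ran from 0.178 to 0.999 against empty vector and from 0.164 to 1.00 against MBD-TET1-CDmut. A planned normexp background correction was not run, because the files hold no mean spot signal and a fit to median signals did not converge to usable values on 2 arrays, so local background subtraction was chosen after seeing the data. Under it, ST3GAL5 no longer lay below the other 6 arrays in both MBD-TET1-CDwt clones.

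For ST8SIA1 probe A_23_P354705, the differences from empty vector, in the order TET1-CDwt, then MBD-TET1-CDwt, then MBD-TET1-CDmut, were -1.42, -1.22, and -1.41 with local background subtraction, -2.11, -1.58, and -1.84 as the mean over both probes, and -1.64, -1.27, and -1.26 with dim signals at the floor. For TET1-CDwt and MBD-TET1-CDwt, the differences with local background subtraction were smaller than those with dim signals at the floor. Leaving out 1 clone gave -4.01 to -3.28, -3.36 to -2.63, and -3.63 to -2.90. Members past 2-fold in MBD-TET1-CDwt against empty vector numbered 2, 1 with local background subtraction, and 0 to 3 when a clone was left out (0 without empty vector #1, 1 without MBD-TET1-CDwt #3, 3 without MBD-TET1-CDwt #10). In MBD-TET1-CDmut against empty vector they numbered 1, and 0 to 1 when a clone was left out (0 without empty vector #1). Against MBD-TET1-CDmut they numbered 1 in MBD-TET1-CDwt, and 1 to 2 when a clone was left out (2 without MBD-TET1-CDwt #10). With dim signals left as measured, 1 member in place of 0 passed 5-fold in each of the 3 comparisons with empty vector.

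No paired analysis was possible because the clone numbers only name colonies and the groups compared share fewer than 2 of them.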
